A study of Mus musculus with 9 samples.

Results

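The genes described here encode nuclear receptors. The list held 39 members of the superfamily. Vdr, Nr4a1, Nr4a2, Nr4a3, Nr1d1, Nr1d2 and Pparg of the same family were not on it and are given only for comparison. Of the 39 genes, 37 had a probe set that carried their symbol alone, out of 18193 such genes on the arrays. Nr1h2 and Nr2e3 were not analysed here. Each gene was represented by its brightest probe set, the one with the highest mean signal over the 9 arrays.

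Nuclear receptors are transcription factors that bind DNA next to their target genes, and many of them are switched by a small fat-soluble ligand such as a steroid, thyroid hormone, retinoic acid, an oxysterol or a fatty acid. Those of the thyroid hormone, retinoic acid, oxysterol and PPAR branches bind DNA mostly as pairs with a retinoid X receptor. In fat cells the family is known for setting adipocyte differentiation, lipid storage, mitochondrial gene expression and the response to glucocorticoids.

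Of the 9 arrays, 3 carried RNA of primary white adipocytes exposed for 4 h to 100 ng/ml PTH(1-34), 3 of cells exposed for 4 h to 100 ng/ml PTHrP(1-34), and 3 of control cells, for which the sources used here name no vehicle. Parathyroid hormone (PTH) and its relative, the parathyroid hormone-related protein (PTHrP), share a receptor coupled to cyclic AMP signalling. All cells were differentiated in culture from the stromal-vascular cells of inguinal fat of male C57BL6 mice aged 30 to 35 days, and the peptides were given on day 8. The culture itself used ligands of nuclear receptors, since per the labels 1 µM dexamethasone, a glucocorticoid, was present during the first 2 days and 1 µM rosiglitazone, a Pparg ligand, until day 6, when plain medium followed. The induction mix also held 5 µg/ml insulin and 0.5 µM isobutylmethylxanthine. Replicates are called biological in the labels, without naming separate mice or cultures, so p-values measure only the spread between these samples.

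Median signals of the arrays ran from 48.3 to 52.7, and precision is limited by how many arrays there are. A gene was called above the dim level where its mean signal passed 29.1, the 40th percentile of all probe sets. All 8 measured adipocyte markers (10 listed) were above it in controls, as were 6 of 7 preadipocyte and fibroblast markers, 6 of 6 of smooth muscle and pericytes, 4 of 8 of macrophages, 3 of 6 of endothelium, 1 of 5 of epithelium and 1 of 4 of lymphocytes. Among those not above it were Ptprc and C1qa of macrophages, Pecam1 of endothelium, Epcam of epithelium and Cd3e and Cd79a of lymphocytes. The summed signal of the smooth muscle and pericyte list lay between 14223 and 14415 with PTH, between 13543 and 14267 with PTHrP and between 14938 and 15174 in controls, without overlap of treated and control arrays. The endothelial sum lay between 228 and 253 with PTH, between 223 and 307 with PTHrP and between 275 and 324 in controls, so that PTH arrays alone were below all controls. The preadipocyte and fibroblast sum lay between 31344 and 31635 with PTH, between 30296 and 32804 with PTHrP and between 31747 and 31983 in controls, again lower without overlap with PTH. A sum follows its brightest genes. Gene by gene, 1 of the 6 smooth muscle and pericyte markers fell with each peptide (limma, adjusted p below 0.05). Of all genes, 3.14% fell with PTH and 3.03% with PTHrP. Of the 8 measured adipocyte markers, 1 rose and 1 fell with each peptide. The share of all genes that rose was 2.96% with PTH and 2.54% with PTHrP. No endothelial, preadipocyte and fibroblast, macrophage, epithelial or lymphocyte marker passed with either peptide. With both peptides together against control, 1 of the 8 macrophage markers rose, beside 3.84% of all genes. The median log2 change of the endothelial markers was -0.06 with PTH and -0.18 with PTHrP. Signal at the 3' end of actin over that at its 5' end, which bears on RNA quality, lay between 1.59 and 1.65 with PTH, between 1.52 and 1.61 with PTHrP and between 1.45 and 1.51 in controls. For Gapdh the same ratio lay between 0.980 and 0.988, between 0.931 and 0.975, and between 0.950 and 0.985. There both treated groups overlapped the controls. The part of any of these in the values that follow was not tested. In such bulk samples, fewer cells of a type and less RNA per cell cannot be told apart.

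Most of these receptors were measured above the dim level, and none passed the test with either peptide. Of the 37 genes, 27 were above the dim level in controls (73.0%), beside 70.6% of all 18193 genes. With PTH 26 were above it and with PTHrP 26. By limma over all genes, with a threshold of 0.05 on the adjusted p, 0 of the 37 passed with PTH against control, where 6.1% of all genes did (2.96% higher and 3.14% lower). With PTHrP against control 0 passed, where 5.57% of all genes did (2.54% higher and 3.03% lower). With both peptides together against control the count was again 0, beside 8.4% of all genes (3.84% higher and 4.57% lower). At an unadjusted p below 0.05 there were 5, 4 and 4 of the 37 receptors in these comparisons (13.5%, 10.8% and 10.8%), beside 19%, 18.3% and 21.2% of all genes.

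The counts over all genes rest on few arrays. The 1109 genes called with PTH became 636, 524 and 469 without PTH replicate 1, 2 or 3, and 596 and 699 without control replicate 2 or 3. The 1013 called with PTHrP became 513 without PTHrP replicate 1, 671 without PTH replicate 3, and 560 and 654 without control replicate 2 or 3. The 1529 called with both peptides became 1007 without PTH replicate 3 and 861 and 977 without control replicate 2 or 3.

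**Figure D1:**
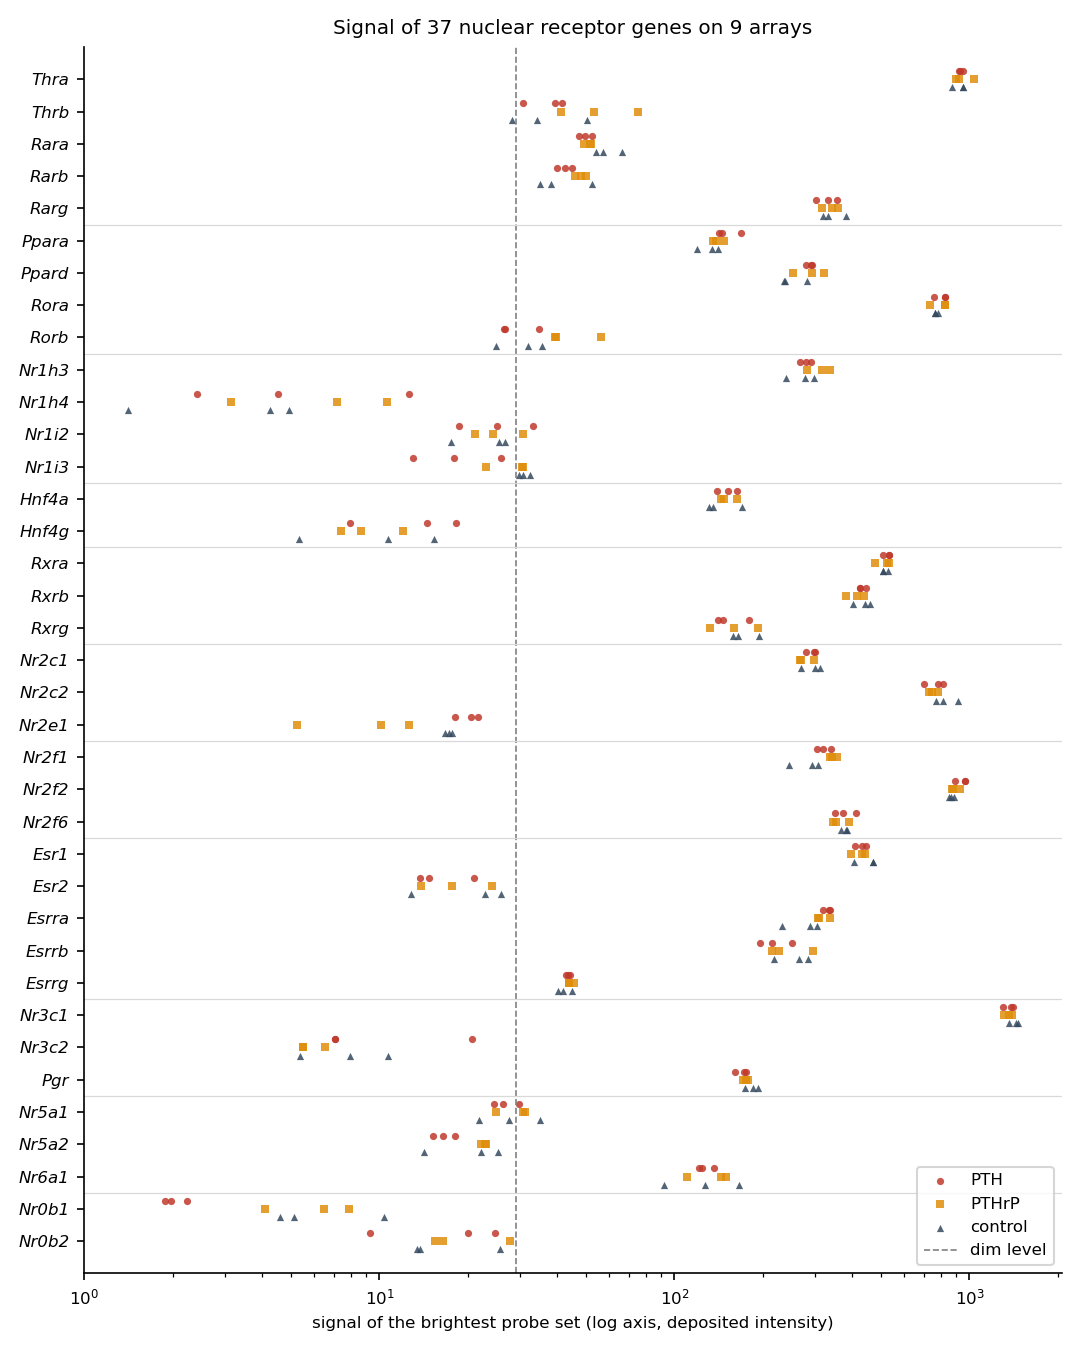
Signal of the brightest probe set of each of the 37 receptor genes on each of the 9 arrays, on a log axis, with PTH arrays as circles, PTHrP arrays as squares and control arrays as triangles; the dashed line is the dim level of 29.1 and grey lines part the subfamilies. Of the 37 genes, 27 have a control mean to the right of the line. Signals of different probe sets are not on a common scale, so the rows are to be read one at a time.

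The sizes of change, given as log2 changes of signals with 16 added, which understates the change of dim genes, were small. Among the 27 receptors above the dim level, the median size was 0.06 with PTH and 0.08 with PTHrP, beside 0.09 and 0.09 for the 12842 genes above that level. The median with its sign was 0.0088 with PTH and 0.04 with PTHrP, beside -0.0023 and -0.01 for all genes above the level. The PTH and PTHrP comparisons share the 3 control arrays. Each peptide had 14 of the 27 higher and 13 lower. The 95% interval of the change, taken gene by gene, lay within 0.5 on either side of 0 for 25 of the 27 with PTH (92.6%) and for 25 with PTHrP (92.6%), beside 87.6% and 87.6% of all genes above the dim level. Outside these bounds were Nr1i3 and Esrrb with PTH and Thrb and Rorb with PTHrP. Within the narrower bound of 0.25 lay 11 of the 27 with each peptide, 40.7%, beside 43.6% of all genes with PTH and 44.4% with PTHrP. The distance from the change to either end of its interval had a median of 0.18 for receptors above the dim level and of 0.36 for the 10 others, so changes of the dim receptors are the less precise.

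**Figure D2:**
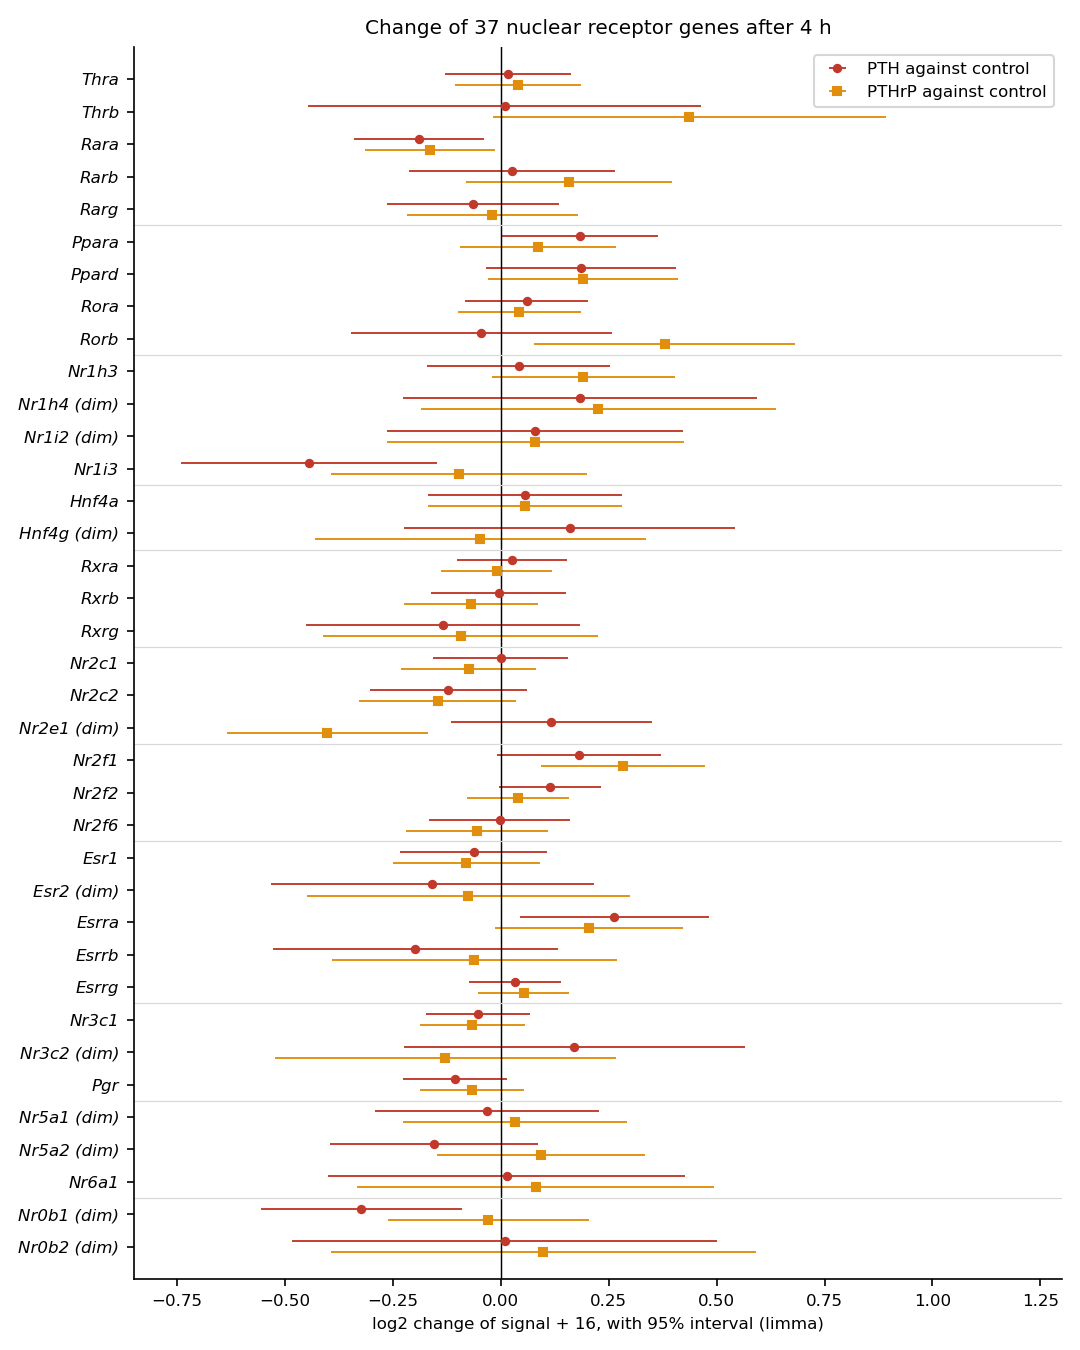
Log2 change of signal + 16 with its 95% interval for the 37 receptor genes, PTH against control as circles and PTHrP against control as squares; genes not above the dim level in controls are marked dim. No gene passed at an adjusted p below 0.05, and the intervals of Rxra, Esrrg and Nr3c1 are among the narrow ones. Each gene is shown by its brightest probe set, and other probe sets of Esrrb, Esrrg and Nr3c1, among others, differed.

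No receptor met the rule for values by array, an adjusted p below 0.05 or a log2 change of 0.5 above the dim level, so those given array by array below were chosen after their values were seen. The receptors for thyroid hormone and retinoic acid were all above the dim level. Thra, the thyroid hormone receptor that predominates in many tissues, had signals of 952, 925 and 932 with PTH and 899, 1033 and 924 with PTHrP, against 950, 951 and 874 in controls. The 3 groups overlapped, and the changes were 0.02 with PTH (95% interval -0.13 to 0.16) and 0.04 with PTHrP (-0.11 to 0.19). Thrb, the other thyroid hormone receptor, had 30.7, 39.3 and 41.7 with PTH and 41.3, 53.3 and 75.5 with PTHrP, against 28.1, 50.4 and 34.1 in controls. Its PTHrP arrays spread widely and overlapped the controls, and the change of 0.44 with PTHrP had an interval from -0.02 to 0.89 (adjusted p = 0.296). Rarb and Rarg, receptors for retinoic acid, had changes between -0.06 and 0.16, with adjusted p of 0.496 or above.

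Rara, the alpha receptor for retinoic acid, had each of its 6 treated arrays under each of the 3 controls. It had 47.5, 49.9 and 52.4 with PTH and 51.6, 52.3 and 49.5 with PTHrP, against 54.3, 57.5 and 66.2 in controls. The log2 change was -0.19 with PTH (SE 0.07, adjusted p = 0.156) and -0.16 with PTHrP (SE 0.07, adjusted p = 0.232), and -0.18 with both together (adjusted p = 0.109), so Rara did not pass. Its 95% interval with both peptides ran from -0.31 to -0.05.

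Arrays that do not overlap are common in these data. In PTH against control, 7 of the 37 receptors had all 3 treated arrays beyond all 3 controls (18.9%), 4 higher and 3 lower, beside 26% of all genes, 12.8% higher and 13.2% lower. With PTHrP there were 5 (13.5%), 3 higher and 2 lower, beside 22.4% of all genes, 10.4% higher and 12% lower. Only Rara, lower, and Esrra, higher, had all 6 treated arrays beyond the controls, 5.41% of the receptors beside 15.6% of all genes, 7.48% higher and 8.11% lower.

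Of the fatty acid and orphan receptors of the PPAR and ROR branches, Ppara, the receptor that drives fatty acid oxidation in liver, had 145, 142 and 168 with PTH and 147, 138 and 135 with PTHrP, against 134, 120 and 141 in controls. Every PTH array lay above every control array, though by little, and the change was 0.18 (adjusted p = 0.254). With PTHrP the arrays overlapped the controls (0.09, adjusted p = 0.649). Ppard, a widely expressed fatty acid sensor, had 279, 290 and 292 with PTH and 253, 322 and 292 with PTHrP, against 280, 235 and 237 in controls. Control replicate 1 lay among the treated arrays, and the change was 0.19 with each peptide (adjusted p = 0.350 with PTH and 0.351 with PTHrP). Over the alternative ways of processing, the change of Ppard ran from 0.0093 to 0.26 with PTH and from -0.0012 to 0.28 with PTHrP. Rora, an orphan receptor that activates clock genes, had 761, 826 and 826 with PTH and 826, 827 and 732 with PTHrP, against 782, 762 and 767 in controls. Its changes were 0.06 and 0.04, with intervals that reached 0.20 and 0.18 at most. Rorb, its relative known from retina and brain, was near the dim level, with 34.7, 26.7 and 26.4 with PTH and 39.4, 39.6 and 56.2 with PTHrP, against 35.5, 31.9 and 24.9 in controls. The PTHrP arrays of Rorb lay above all controls (0.38, adjusted p = 0.163), while its PTH arrays overlapped them (-0.05, adjusted p = 0.908). With the mean of the gene's 3 probe sets in place of the brightest, Rorb passed with PTHrP (0.30, adjusted p = 0.0294).

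The sensors of oxysterols and foreign compounds held 1 gene well above the dim level. Nr1h3, coding for LXR alpha, which induces cholesterol export and fatty acid synthesis genes, had 265, 279 and 290.4 with PTH and 337, 316 and 281 with PTHrP, against 278, 238 and 297 in controls. All 3 groups overlapped (0.04 with PTH, 0.19 with PTHrP, adjusted p = 0.875 and 0.330). Nr1i3, coding for the xenobiotic receptor CAR, lay just above the dim level in controls, with 17.9, 25.7 and 13.0 with PTH and 30.6, 22.9 and 30.4 with PTHrP, against 29.7, 30.6 and 32.3 in controls. Its PTH arrays were below all controls and below the dim level, with a change of -0.44 (SE 0.13, adjusted p = 0.0939), whereas PTHrP arrays overlapped the controls (-0.10, adjusted p = 0.773). Without PTH replicate 2, the PTH array nearest the controls, it passed (-0.58, adjusted p = 0.0335). Nr1h4, the bile acid receptor, and Nr1i2, the xenobiotic receptor PXR, were not above the dim level in any group mean.

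The retinoid X receptors, partners of the receptors above, gave some of the narrow intervals. Rxra had 533, 535 and 508 with PTH and 477, 535 and 527 with PTHrP, against 509, 531 and 508 in controls. All groups overlapped, and the changes of 0.03 and -0.01 had intervals from -0.10 to 0.15 and from -0.14 to 0.12. Rxrb had changes of -0.0050 and -0.07, with an interval from -0.16 to 0.15 with PTH. Rxrg had 179, 140.4 and 146 with PTH and 159, 132 and 192 with PTHrP, against 164, 193 and 158 in controls, and its wider interval with PTH ran from -0.45 to 0.18.

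The COUP transcription factors are orphan receptors that mostly repress transcription, and Nr2f2 is known to restrain adipocyte differentiation. Nr2f1, coding for COUP-TFI, had 318, 305 and 338 with PTH and 355, 336 and 343 with PTHrP, against 293, 306 and 245 in controls. Every PTHrP array lay above every control (0.28, SE 0.08, adjusted p = 0.101), while PTH replicate 2 lay just under control replicate 2 (0.18, adjusted p = 0.285). With both peptides together the change was 0.23 (adjusted p = 0.0948). Under a trended and robust variance Nr2f1 passed with PTHrP (adjusted p = 0.0286) and with both together (adjusted p = 0.0301). Nr2f2, coding for COUP-TFII, had 967, 896 and 964 with PTH and 881, 932 and 869 with PTHrP, against 867, 854 and 886 in controls. Its PTH arrays were all above the controls by a small margin (0.11, interval -0.0037 to 0.23, adjusted p = 0.279). Nr2f6 had changes of -0.0025 and -0.06.

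The testicular orphan receptors Nr2c1 and Nr2c2 had changes of -0.00050 and -0.12 with PTH and of -0.07 and -0.15 with PTHrP, with adjusted p of 0.394 or above. Nr2c2 had 814, 699 and 780.4 with PTH and 726, 744 and 780 with PTHrP, against 816, 912 and 771 in controls, with overlap in both comparisons. The HNF4 receptors, known for liver and gut, gave Hnf4a at 139, 152 and 163 with PTH and 147, 163 and 144 with PTHrP, against 136, 131 and 169 in controls. That signal came from 1 of the 4 probe sets of Hnf4a, the other 3 having control means between 3.04 and 7.19, and Hnf4g was below the dim level.

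Among receptors for oestrogen and their relatives, Esrra, coding for ERR alpha, an orphan receptor that works with the coactivator Ppargc1a on mitochondrial genes, was higher in all treated arrays. It had 320.0, 337 and 335 with PTH and 336, 309 and 306 with PTHrP, against 305, 288 and 231 in controls. The gap to the highest control was small, and control replicate 3 lay well below the other controls. The change was 0.26 with PTH (SE 0.09, adjusted p = 0.173), 0.20 with PTHrP (adjusted p = 0.307) and 0.23 with both together (interval 0.05 to 0.42, adjusted p = 0.139). Under a trended and robust variance the last of these passed (adjusted p = 0.0486). Without control replicate 3 it was 0.12, the lowest value over all alternatives. These values are of the brightest probe set of Esrra. On its other probe set, also above the dim level, treated arrays overlapped the controls, with changes of 0.10 and 0.14. Esr1, the oestrogen receptor alpha, had 445, 409 and 434 with PTH and 397, 443 and 433 with PTHrP, against 472, 473 and 405 in controls, and the groups overlapped (-0.06 and -0.08). Esrrb had changes of -0.20 and -0.06 on its brightest probe set. Of its other probe sets, also above the dim level, the brighter had 0.11 with PTH and 0.07 with PTHrP. The dimmer had -0.09 and -0.17. Esrrg had changes of 0.03 and 0.05 with intervals no farther from 0 than 0.16. That bound holds for the brightest Esrrg probe set. Another one above the dim level had -0.38 with PTH (interval -0.94 to 0.19) and 0.03 with PTHrP (-0.53 to 0.59). Esr2, the beta receptor, was below the dim level.

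The brightest probe set of Nr3c1, the glucocorticoid receptor, had one of the narrow intervals. Its signals were 1304, 1385 and 1407 with PTH and 1393, 1357 and 1307 with PTHrP, against 1434, 1455 and 1359 in controls, and the groups overlapped. The change was -0.05 with PTH (interval -0.17 to 0.07, adjusted p = 0.683) and -0.07 with PTHrP (-0.19 to 0.05, adjusted p = 0.591). The next brightest of the 6 Nr3c1 probe sets had all treated arrays below all controls. It had 1142 ± 30.7 with PTH and 1197 ± 60.8 with PTHrP, against 1302 ± 50.6 in controls (SD, n = 3 each). Its changes were -0.19 and -0.12, and -0.15 with both together (adjusted p = 0.184 in limma over all probe sets). A dimmer one had 212 ± 6.08 with PTH and 198 ± 13.3 with PTHrP, against 255 ± 23.3 in controls. Its changes were -0.24 and -0.34, and -0.29 with both together (adjusted p = 0.0535 in the same fit). Neither passed. Across the remaining probe sets the changes lay between -0.09 and 0.13. Nr3c2, the mineralocorticoid receptor, was below the dim level. Pgr, the progesterone receptor, had 172, 161 and 175 with PTH and 177, 175 and 171 with PTHrP, against 192, 185 and 174 in controls, with changes of -0.11 and -0.07 (adjusted p = 0.328 and 0.589). Its other 2 probe sets were below the dim level in controls.

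The 10 receptors not above the dim level in controls were Nr1h4, Nr1i2, Hnf4g, Nr2e1, Esr2, Nr3c2, Nr5a1, Nr5a2, Nr0b1 and Nr0b2, most of them known from liver, brain or steroid-making glands. Their changes lay between -0.32 and 0.18 with PTH and between -0.40 and 0.23 with PTHrP, none past the threshold. The lowest adjusted p was that of Nr2e1, a receptor of neural stem cells. It had 20.5, 17.99 and 21.6 with PTH and 10.1, 12.6 and 5.27 with PTHrP, against 17.7, 17.3 and 16.7 in controls. All PTHrP arrays lay below the controls (-0.40, adjusted p = 0.0623) and all PTH arrays just above them (0.12, adjusted p = 0.626), at signals under the dim level throughout. Without PTHrP replicate 2 it passed with PTHrP (-0.49, adjusted p = 0.0329). Over all alternatives the change of Nr2e1 with PTHrP ran from -0.89 to -0.15. The other, dimmer probe set of Nr2e1 had 0.26 with PTH and 0.05 with PTHrP. Nr0b1, a repressor that lacks the usual DNA-binding domain, had 2.23, 1.97 and 1.87 with PTH and 7.88, 4.09 and 6.51 with PTHrP, against 5.14, 4.59 and 10.4 in controls (-0.32 with PTH, adjusted p = 0.119). Nr6a1, an orphan receptor of germ cells and embryo, was above the dim level, with 124, 136 and 121 with PTH and 143, 110.3 and 149.5 with PTHrP, against 127, 166 and 92.3 in controls. The controls of Nr6a1 spread beyond all treated arrays, and the changes were 0.01 (interval -0.40 to 0.43) and 0.08 (-0.33 to 0.49). Another Nr6a1 probe set above the dim level had all treated arrays below all controls. It had 65.1 ± 2.21 with PTH and 68.5 ± 6.45 with PTHrP, against 77.4 ± 4.56 in controls (SD, n = 3 each). Its changes were -0.20 and -0.15, and -0.17 with both together (adjusted p = 0.201 in limma over all probe sets). The remaining Nr6a1 probe sets had changes between -0.17 and 0.13.

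**Figure D3:**
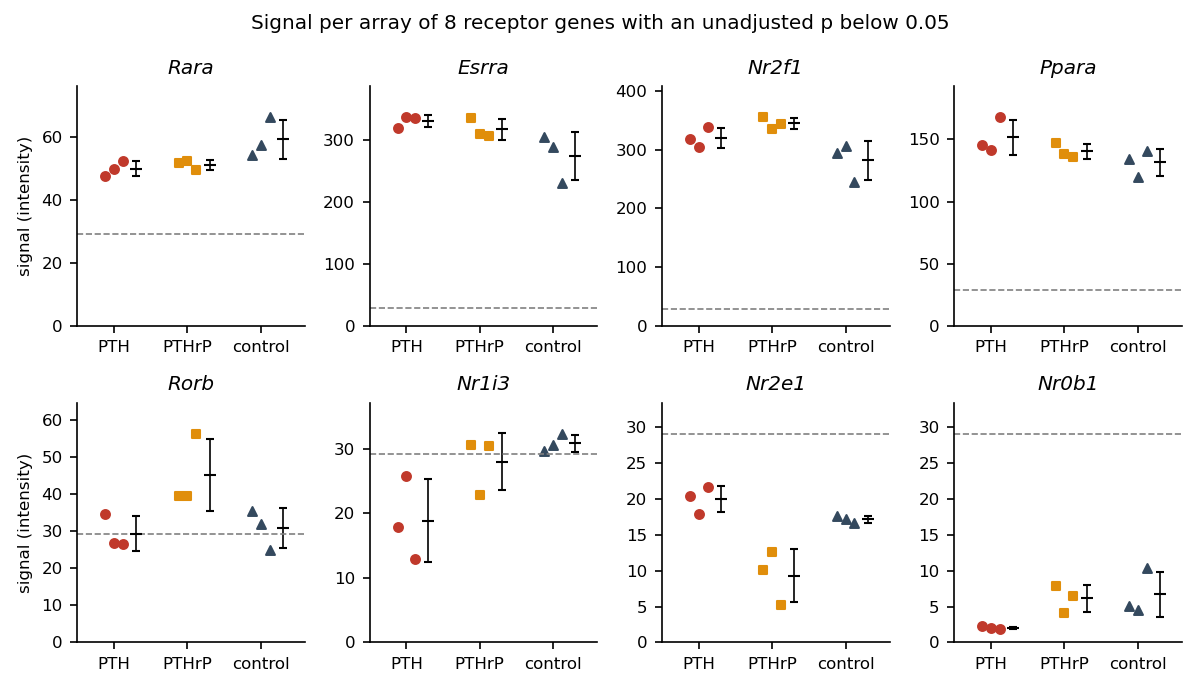
Signal on each array of the 8 receptor genes with an unadjusted p below 0.05 in a comparison with control, for PTH, PTHrP and control from left to right; bars beside the points are the mean and SD of 3 arrays and the dashed line is the dim level of 29.1. Rara lies lower and Esrra higher in all 6 treated arrays, while Nr2e1 and Nr0b1 stay below the dim level on every array.

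PTH and PTHrP were compared directly, in the same fit of 3 groups, so that the controls entered the estimate of the spread but not the difference. In limma's test 0 of the 37 receptors and 0% of all genes passed. At an unadjusted p below 0.05 there were 5 receptors (13.5%), beside 4.01% of all genes. They were Nr2e1 (0.52, PTH over PTHrP, interval 0.29 to 0.75, adjusted p = 0.784), Rorb (-0.42), Nr1i3 (-0.35), Nr0b1 (-0.29) and Nr5a2 (-0.25), each of the last 4 with an adjusted p of 0.999. All 5 had control means below or close to the dim level. Among the receptors with higher signals, the interval of the difference ran from -0.17 to 0.12 for Thra, from -0.09 to 0.16 for Rxra, from -0.11 to 0.13 for Nr3c1 and from -0.16 to 0.28 for Esrra. Those intervals say how large a difference between the peptides these arrays leave possible.

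The other probe sets were then examined, a step chosen after the values above were seen. The 37 receptors had 99 probe sets in all, and 24 genes had more than 1. In controls, all probe sets were above the dim level for 6 of these genes, some but not all and over 1 for 8, 1 alone for 5 (Hnf4a, Pgr, Ppard, Rarg and Rorb) and none for 5. Fitted over all 45037 probe sets, 0 of the 99 passed with PTH, where 2.7% of all did, 1 passed with PTHrP, where 2.39% did, and 1 with both together, where 4.13% did. It was the dimmest of the 9 probe sets of Rora, with 23.5, 27.0 and 31.3 with PTH and 30.7, 34.9 and 33.1 with PTHrP, against 10.7, 22.4 and 9.79 in controls. Treated arrays lay above all controls, with a log2 change of 0.71 with PTHrP (SE 0.15, adjusted p = 0.0472) and 0.54 with PTH (adjusted p = 0.116). The call with PTHrP was lost without any 1 of the arrays other than control replicate 2, with adjusted p between 0.0741 without PTH replicate 1 and 0.144 without control replicate 3. The other 8 probe sets of Rora had changes between -0.14 and 0.35 with PTHrP, none of them past the threshold.

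**Figure D4:**
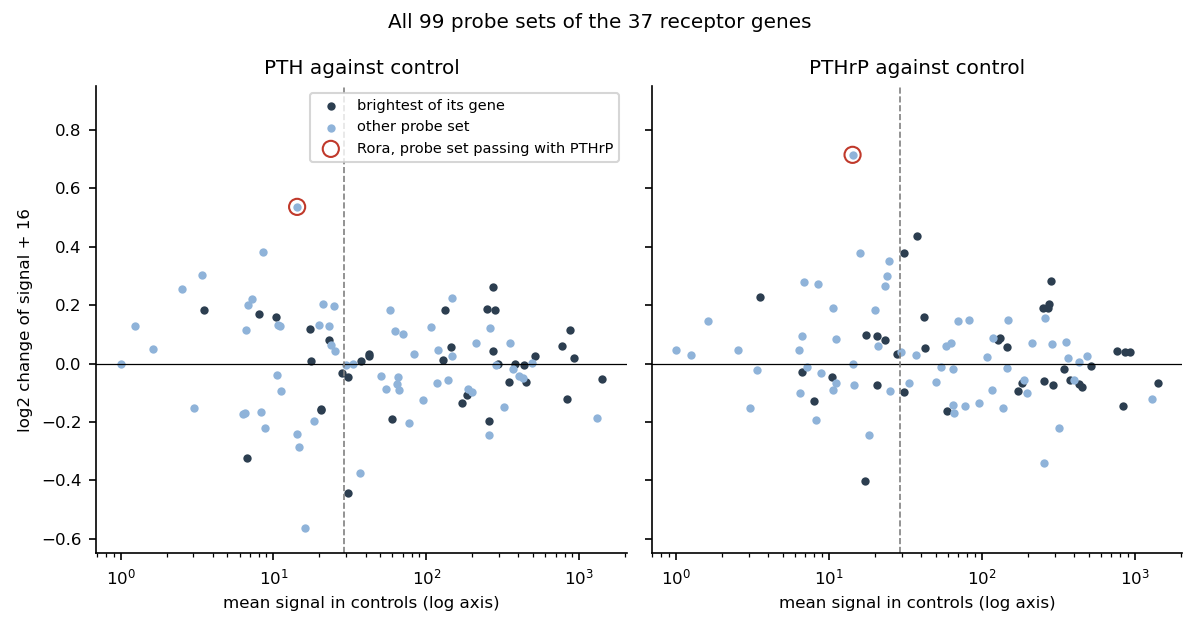
Log2 change of signal + 16 against the mean signal in controls (log axis) for all 99 probe sets of the 37 receptor genes, with PTH on the left and PTHrP on the right; dark points are the brightest probe set of a gene and light points the others, and the dashed line is the dim level of 29.1. The ringed Rora probe set, at 0.54 with PTH and 0.71 with PTHrP, lies left of that line.

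Both peptides act through cyclic AMP, so the promoters of the receptors were searched for the cyclic AMP response element, the sequence read by CREB. The letters were TGACGTCA for the full element, which reads the same on both strands, and TGACG for the short element on either strand, which every full element also holds. RefSeq promoter windows of 300 bases on GRCm38.p6, from 250 before to 50 after a start, were found for 35 of the 39 listed genes, some with several starts. The full element was in 2 of their 54 windows (3.7%), beside 1.79% of 32851 windows of all genes, and the short element in 14 (25.9%), beside 20.8%. The 2 windows with a full element belonged to Nr2e1 and Nr6a1. Both windows are shown. Nr2e1 was below the dim level, and the brightest probe set of Nr6a1 had the changes of 0.01 and 0.08 given above. Whether the element bears on the signal of either gene was not tested. The full element is in capitals, on the minus strand of chr10:42583541-42583840 for Nr2e1, where it begins 125 bases before the start, and of chr2:38926412-38926711 for Nr6a1, where it lies after the start.
Nr2e1: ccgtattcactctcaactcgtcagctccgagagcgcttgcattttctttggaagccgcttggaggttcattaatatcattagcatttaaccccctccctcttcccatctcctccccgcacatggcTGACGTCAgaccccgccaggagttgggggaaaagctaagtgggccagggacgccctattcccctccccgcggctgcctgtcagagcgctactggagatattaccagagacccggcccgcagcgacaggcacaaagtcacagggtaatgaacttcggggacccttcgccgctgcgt
Nr6a1: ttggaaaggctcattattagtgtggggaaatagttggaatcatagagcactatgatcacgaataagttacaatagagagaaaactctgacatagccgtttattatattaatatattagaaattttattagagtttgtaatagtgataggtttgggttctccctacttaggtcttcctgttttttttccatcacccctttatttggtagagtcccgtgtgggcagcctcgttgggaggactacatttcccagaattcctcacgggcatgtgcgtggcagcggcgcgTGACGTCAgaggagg

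Short elements stood in windows of Ppard, Rara, Ppara, Thrb and Nr2c2, among others, receptors above the dim level whose values by array are given above. Ppard and Rara, with changes of 0.19 and -0.19 with PTH, were picked from these after their values were seen. Over the alternative ways of processing those changes ran from 0.0093 to 0.26 for Ppard and from -0.24 to -0.11 for Rara. Whether the element bears on those changes was not tested. Stretches with 15 bases on either side of the short element, in capitals, are shown for comparison of their surroundings. All are on the plus strand of GRCm38.p6, at chr17:28232735-28232769 for Ppard, and chr11:98939724-98939758 and chr11:98964630-98964664 for 2 starts of Rara.
Ppard: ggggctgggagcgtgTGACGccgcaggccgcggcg
Rara, first start: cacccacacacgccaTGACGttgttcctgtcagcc
Rara, second start: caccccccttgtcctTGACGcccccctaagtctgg
A match of letters is a description and not a binding site.

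Genes of ligand metabolism encode enzymes that make or destroy the ligands. The list had 15 listed genes, 11 of them measured, and with both peptides together 2 rose, 2 fell and 7 missed the threshold, where 8.4% of all genes passed. No test compared these genes with the receptors. The list's median log2 change was -0.05, beside -0.0036 for all genes. Rdh10, which makes retinal from retinol, had 1045 ± 29.6 with PTH and 1108 ± 80.5 with PTHrP, against 403 ± 52.3 in controls (SD, n = 3 each), a log2 change with both together of 1.39 (adjusted p = 5.95e-05). Dio2, which activates thyroid hormone, had 85.9 ± 4.35 and 86.0 ± 1.65, against 37.3 ± 4.71 (0.94, adjusted p = 7.65e-05, and 0.36 where its probe sets were averaged). The retinal dehydrogenase genes Aldh1a3 (-0.39, adjusted p = 0.00259) and Aldh1a1 (-0.23, adjusted p = 0.0303) fell. Aldh1a3 did not pass with the mean of its probe sets (-0.10, adjusted p = 0.683). Aldh1a1 failed without PTH replicate 1 (-0.23) or 3 (-0.22), PTHrP replicate 1 (-0.23) or 3 (-0.23), or any 1 control (-0.26 to -0.18), with adjusted p of 0.0502 to 0.1004. The receptors kept apart from the list did move in part, with 2 of 7 higher, 1 lower and 4 not past the threshold. Vdr, the vitamin D receptor, had 1222 ± 32.9 with PTH and 1245 ± 57.5 with PTHrP, against 282 ± 29.4 in controls (2.07, adjusted p = 5.75e-06). Nr4a3, a receptor induced by cyclic AMP, rose by 0.92 (0.26 where its probe sets were averaged) and Nr1d2, a clock repressor, fell (-0.31, adjusted p = 0.00677, but -0.14 and adjusted p = 0.121 where its probe sets were averaged). Pparg had 3060 ± 179.5 and 2953 ± 143, against 3046 ± 97.2 (-0.02, adjusted p = 0.891).

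Coregulators are the proteins that receptors recruit to switch genes on or off. Among 22 listed, 20 were measured, and with both peptides together 1 rose, 1 fell and 18 missed the threshold (median -0.03, beside -0.0036 for all genes). The share that passed was near the 8.4% of all genes. Ncoa4, a coactivator that also carries ferritin to its breakdown, had 2455 ± 100.3 with PTH and 2432 ± 219 with PTHrP, against 1904 ± 28.6 in controls (0.36, adjusted p = 0.00935). It did not pass where its probe sets were averaged (0.26, adjusted p = 0.0607). The acetyltransferase gene Kat2b fell (-0.22, adjusted p = 0.0168), but did not pass without control replicate 2 (-0.19, adjusted p = 0.0711).

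Known target genes of the receptors were read in the same comparison of both peptides together against control, where 8.4% of all genes passed, and their calls went in both directions. Of 14 glucocorticoid targets, 2 rose, 3 fell and 9 did not pass (median -0.09). The metallothionein genes Mt2 (0.46, adjusted p = 0.00126) and Mt1 (0.35) rose, Mt1 not past the threshold where its probe sets were averaged (adjusted p = 0.0734). The chaperone gene Fkbp5 fell, with 407 ± 18.1 with PTH and 387 ± 32.2 with PTHrP, against 503 ± 22.2 in controls (-0.33, adjusted p = 0.0122). It failed without control replicate 3 (-0.30, adjusted p = 0.0555) and where its probe sets were averaged (-0.19, adjusted p = 0.0848). The other 2 falls were Tsc22d3 (-0.22), which failed without control replicate 2 (-0.21, adjusted p = 0.0593), and Zbtb16 (-0.37), which failed without any 1 array other than control replicate 3 (-0.39 to -0.28, adjusted p from 0.0743 to 0.160), and with a pseudocount of 1 (adjusted p = 0.0717).

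The 8 listed retinoic acid targets had 6 measured, of which 1 rose, 1 fell and 4 missed the threshold (median 0.11). Dhrs3, which turns retinal back to retinol, fell, with 659 ± 55.0 with PTH and 732 ± 69.3 with PTHrP, against 1027 ± 44.0 in controls (-0.56, adjusted p = 0.00289), and Tgm2 rose (0.22, adjusted p = 0.00751). Of 9 oxysterol receptor targets, 0 rose, 1 fell and 8 did not pass (median -0.03). The 1 was Mylip, a ligase that degrades the LDL receptor, with 852 ± 26.7 and 829 ± 29.4, against 1351 ± 58.3 (-0.67, adjusted p = 0.000111). Of 7 thyroid hormone targets, 2 rose, 1 fell and 4 did not pass (median -0.06), namely Ucp1 (5.74), the uncoupling protein, whose control mean of 16.7 was under the dim level, and Cpt1a (0.48), which lets fatty acids into mitochondria, against Thrsp (-0.30). Thrsp failed without control replicate 2 (-0.32, adjusted p = 0.0547) or 3 (-0.27, adjusted p = 0.0736) and with the mean of its probe sets (-0.10, adjusted p = 0.559). Of 9 measured PPAR targets (12 listed), Cpt1a rose, Ehhadh fell and 7 did not pass (median 0.07). Ehhadh (-0.20, adjusted p = 0.0316) failed without any 1 PTH array, PTHrP replicate 1, control replicate 2 or control replicate 3 (-0.21 to -0.18, adjusted p from 0.0548 to 0.111), and with quantile normalization (adjusted p = 0.0549). None of 9 measured targets of the oestrogen-related receptors (10 listed) passed (median 0.04). These lists overlap, with Cpt1a on 2 of them.

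**Figure D5:**
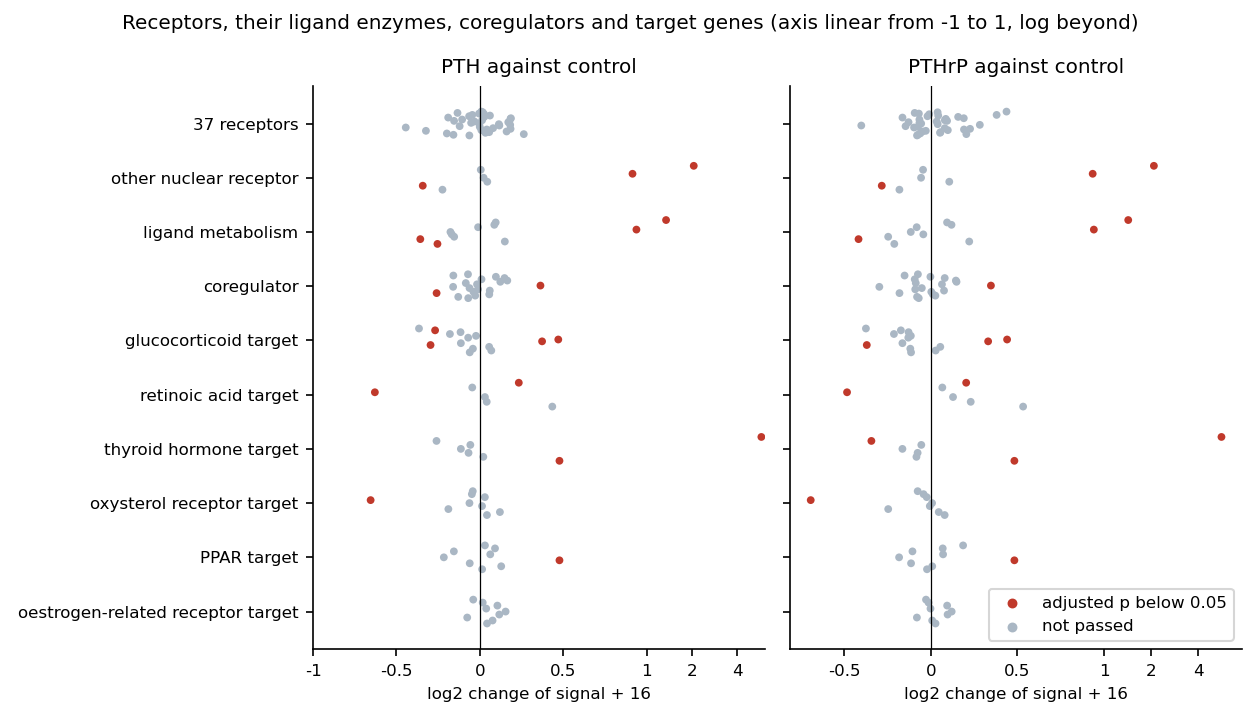
Log2 change of signal + 16 of the 37 receptors, the other nuclear receptors, and the genes of ligand metabolism, coregulation and receptor targets, with PTH on the left and PTHrP on the right; red points had an adjusted p below 0.05 in limma, and the axis is linear between -1 and 1 and logarithmic beyond. All 37 receptors are grey, while red points stand among ligand enzymes, coregulators and targets, and none among targets of the oestrogen-related receptors.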

How the data were processed

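RNA of 9 samples was measured on 1-colour Affymetrix arrays. The deposited table holds 1 intensity per probe set and array. Its range shows a linear scale, while the sources used here do not state how probes were summarised, corrected for background or scaled. Of 45101 probe sets, 64 are array controls, 34945 carry 1 gene symbol in the platform annotation, 932 carry several and 9160 none. Groups were taken from the labels.

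Each gene was represented by its brightest probe set with 1 symbol, giving 18193 genes. Intensities plus 16 were taken to log2 and fitted as 3 group means with limma 3.58.1 in R 4.3.3 (lmFit, eBayes), with Benjamini-Hochberg adjustment over all genes and a threshold of 0.05. The fit was tested on simulated data. Members and lists were chosen with earlier results of these data known. Values by array were to be given for receptors that passed, or with a log2 change of 0.5 above the dim level, and of each list up to 4 genes that passed were to be named. Promoters came from RefSeq (GRCm38.p6) and were searched with Python 3.11.15. Alternatives changed the normalization, the filter on dim genes, the probe set rule, the pseudocount, the variance model, array weights, the replicate block, the groups fitted and the arrays included.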

Additional observations from a re-analysis of the deposited data

Results flagged for a closer look

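One probe set of Rora outside the main measurement passed in limma over all probe sets, a look added after the data were seen. Its log2 change was 0.71 with PTHrP against control (adjusted p = 0.0472) and 0.63 with both peptides together (adjusted p = 0.0329), at a control mean of 14.3, under the dim level of 29.1. The brightest probe set of Rora had 0.04 and 0.05 in the same comparisons. With the replicate number as a block the adjusted p was 0.0805 with PTHrP and 0.0564 with both together, and with a pseudocount of 1 it was 0.0979 and 0.0653. Without control replicate 2, the highest of the controls, the changes were 0.90 and 0.81 (adjusted p = 0.00569 and 0.00423).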

How the results depend on the processing

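No receptor passed with PTH against control except without 1 array (0 to 1, Nr1i3 at -0.58 without PTH replicate 2). With PTHrP the count of 0 became 1 with the mean of probe sets (Rorb), 1 under a trended and robust variance (Nr2f1), 1 over all probe sets (Rora, chosen after seeing the data) and 0 to 1 without 1 array (Nr2e1 at -0.49 without PTHrP replicate 2). With both together it became 1 with the mean of probe sets (Rorb, 0.23, adjusted p = 0.0377), 2 under a trended and robust variance (Nr2f1 and Esrra) and 1 over all probe sets, and was 0 without any 1 array. PTH against PTHrP gave 0 under every alternative run. Of 2039 receptor values under alternatives, 7 passed the threshold. Of those that did not pass, 2004 differed from the main value by less than the SD within groups, and 28 differed by more. Over all genes, the 1109 calls with PTH became 1743 under a trended and robust variance, 672 with the replicate block and 469 to 1050 without 1 array. The 1013 with PTHrP became 1648, 575, 455 in a fit of the 2 groups alone, and 513 to 770 without 1 array. The 1529 with both together became 861 to 1424 without 1 array. The 27 receptors above the dim level were 26 to 28 without 1 control. The causes were not tested. Same-numbered arrays had correlations of their deviations between -0.25 and 0.19, and not every array correlated best with its own number. The labels do not say whether equal numbers mark a shared culture. With so few arrays per group, these correlations cannot settle it. With the replicate block 0 receptors passed in each comparison, and with both peptides together Kat2b, Zbtb16 and Ehhadh no longer passed (adjusted p = 0.0623, 0.0901 and 0.0741). Signals near the dim level limit what these arrays show for 10 receptors.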
